A study of Arabidopsis thaliana with 24 samples.

Results

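Phenylpropanoids are the plant compounds built on the carbon skeleton of phenylalanine, and they include lignin, flavonoids and sinapate esters. The first enzymes of the pathway are shared by these branches. Phenylalanine ammonia-lyase (PAL) removes ammonia from phenylalanine to give cinnamate, cinnamate 4-hydroxylase (C4H) converts cinnamate to p-coumarate, and 4-coumarate:CoA ligase (4CL) activates p-coumarate as a CoA thioester. In Arabidopsis, PAL1 and PAL2 are the main PAL genes of lignin and flavonoid synthesis, 4CL1 serves mainly the lignin branch, and 4CL3 serves mainly the flavonoid branch.

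The 8 genes described here were chosen by locus identifier: PAL1 (AT2G37040), PAL2 (AT3G53260), PAL3 (AT5G04230), PAL4 (AT3G10340), C4H (AT2G30490), 4CL1 (AT1G51680), 4CL2 (AT3G21240) and 4CL3 (AT1G65060). All 8 were listed in both deposited tables, among 23202 genes for the ecotype Col-0 and 23059 for the ecotype Ler. In the gene order of the assembly TAIR10.1, 4CL2 lies beside 4CL5, and no member is the immediate neighbour of another.

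The study compared diploid (2x) with tetraploid (4x) seedlings of Arabidopsis thaliana within each ecotype, to relate genome duplication to flowering time and to trimethylation of lysine 27 on histone H3. RNA came from whole seedlings 2 weeks old, and each combination of ecotype and ploidy had 2 RNA-seq libraries, 8 in all. The groups were 2x Col-0, 4x Col-0, 2x Ler and 4x Ler, with no treatment or transgene named in the labels. The labels name soil, 22 °C and days with 16 h or 8 h of light, without assigning a day length to a library. The labels give no origin of the tetraploid lines. The 16 chromatin libraries of the series were not analysed here.

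A library held 22343366 normalized reads on average in Col-0 and 22138532 in Ler. The leaf gene RBCS1A, which encodes the Rubisco small subunit, had the highest mean count in both tables. CASP1, a marker of the root endodermis, had a mean count of 14.0 in Col-0 and 6.72 in Ler. Every log2 fold change sets 4x over 2x. The headers name no direction. It was read from FLC, the flowering repressor known to be higher in tetraploid Col-0, and from the low reads of ESP in diploid Col-0. The authors' deposited table gave FLC at 2.63 ± 0.17. In Ler, FLC was not called (authors' deposited table, 0.41 ± 0.29, adjusted p = 0.56), so the Ler table was assumed to have the same direction, and each Ler direction and each difference between ecotypes rests on that assumption. Each ± is the authors' standard error (SE). A gene is called where the authors' adjusted p is under 0.05.

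The 4x Col-0 libraries stood apart from 2x Col-0 at loci known to vary between Arabidopsis ecotypes. ESP, a glucosinolate breakdown gene that is silent in Col-0, had 23.5 reads per 1000000 in 2x Col-0 and 2889 in 4x Col-0, from the means and fold changes of the authors' deposited tables, beside 1457 in 2x Ler and 2180 in 4x Ler. ESM1, which counteracts ESP, had 675 in 2x Col-0 and 44.4 in 4x Col-0 on this scale, beside 38.6 and 40.7 in Ler. For both genes 4x Col-0 was thus nearer to Ler than to 2x Col-0, whereas MED5B had 24.7 and 28.3 in 2x and 4x Col-0 and under 1 in Ler. Low ESP in 2x Col-0 also served to read the direction, so this assignment is not independent of it. Under the reverse direction, 2x Col-0 would be the one nearer to Ler. Whether the 2x and 4x Col-0 seedlings differed in more than ploidy was not tested, and in each Col-0 comparison that follows ploidy and such a difference cannot be told apart.

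The deposited tables give means over 4 libraries, but the reads of each library could be solved for. A single set of whole read counts met the deposited mean, fold change and SE of each member in each table, with an error of the log2 fold change of at most 1.46e-07. The next best set, where there was one, missed the fold change by at least 1.27e-06. The libraries of a ploidy are called a and b, where a has the larger size factor, because their replicate numbers cannot be told from the tables. Normalized reads are these counts divided by the library's size factor. They are relative to the other transcripts of a library, so transcripts per cell or per gene copy were not measured. Words such as higher, lower and fell refer to this relative level.

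In Col-0, the PAL genes moved in opposite directions with ploidy. The minor genes PAL3 and PAL4 were higher in the tetraploid, PAL1 and C4H fell by 12.8% and 14.0%, and PAL2, 4CL1, 4CL2 and 4CL3 were not called. In Ler, PAL3 was again higher and C4H again lower, and 4CL3 was lower. In the authors' deposited tables, 4 of the 8 members were called in Col-0, where 15.4% of all genes tested were called, and 3 of 8 in Ler, where 5.1% were. By direction, 2 members were higher and 2 lower in Col-0, against 7.13% and 8.23% of all genes, and 1 was higher and 2 lower in Ler, against 3.19% and 1.91%. Every member had over 200 reads per library on average, and of all genes with a mean count of 200 or more, 20.8% were called in Col-0 and 6.57% in Ler. Both 4x libraries lay above both 2x libraries for 4 members in Col-0, below for 4 and overlapped for 0. In Ler these counts were 3, 4 and 1. Uncalled members were among those that separated, and the share over all genes was not computed. With 2 libraries against 2, an exact permutation test cannot give a p below 0.333, so separation alone says little.

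**Figure D1:**
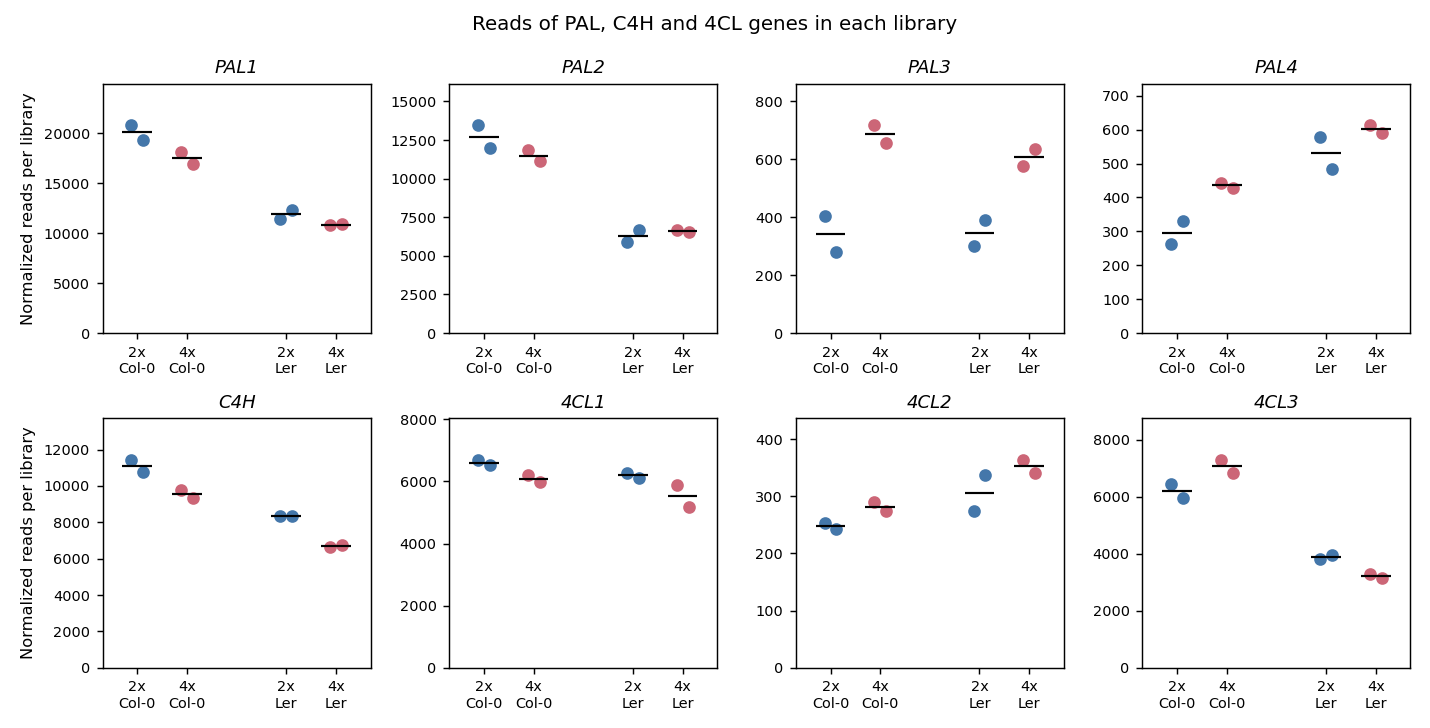
Normalized reads (vertical axis, starting at 0) of each of the 8 genes in each library, by ploidy and ecotype. Each point is 1 library and each bar is the mean of 2. PAL3 rises from 280 to 403 reads in 2x Col-0 to 657 to 717 in 4x Col-0, while C4H falls in both ecotypes.

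PAL3 had the largest fold changes of the 8 members in both ecotypes. PAL3 encodes the most divergent PAL isoform of Arabidopsis. In Col-0, PAL3 had 403 and 280 normalized reads in 2x libraries a and b, and 717 and 657 in 4x libraries a and b. The groups did not overlap, although the 2x libraries differed by 1.44 times between themselves. The authors' deposited table gave a 2.01-fold higher level in the tetraploid (1.00 ± 0.18, adjusted p = 3.04e-07). In Ler, PAL3 had 299 and 392 normalized reads in the 2x libraries, and 577 and 636 in the 4x libraries. These groups were also separate, with 2x library a the lowest of the 4. The authors' deposited table gave a 1.76-fold higher level in tetraploid Ler (0.81 ± 0.17, adjusted p = 0.000131). The fold changes of the ecotypes differed by −0.19 ± 0.24 (Ler minus Col-0, two-sided Wald test, adjusted p = 0.82), so a difference between ecotypes was not detected, with a 95% interval from −0.67 to 0.29.

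PAL4, the other minor member, was called in Col-0. It had 263 and 330 normalized reads in the 2x Col-0 libraries, and 444 and 427 in the 4x libraries. Both tetraploid libraries were above both diploid ones, and the authors' deposited table gave a 1.47-fold higher level (0.56 ± 0.18, adjusted p = 0.0164). In Ler, PAL4 had 578 and 485 normalized reads in the 2x libraries, and 613 and 591 in the 4x libraries. The 4x libraries were again the higher ones, but by less than the gap between the 2x libraries, and the authors' deposited table gave 0.18 ± 0.15 (adjusted p = 0.66). The difference between ecotypes was not called (−0.38 ± 0.23, adjusted p = 0.43). With 1 Col-0 library left out, the log2 fold change of PAL4 ranged from 0.40 without 2x library a to 0.73 without 2x library b. The Col-0 call was lost under an empirical null, which widens the null to the spread of all statistics (adjusted p = 0.37, against 0.0147 to 0.0178 with other filters).

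PAL1, the PAL gene with the most reads, was slightly lower in tetraploid Col-0. It had 20820 and 19359 normalized reads in the 2x Col-0 libraries, and 18118 and 16901 in the 4x libraries. All diploid values were above all tetraploid ones, and the authors' deposited table gave −0.20 ± 0.06 (adjusted p = 0.014). In Ler, PAL1 had 11457 and 12348 normalized reads in the 2x libraries, and 10786 and 10921 in the 4x libraries. The order of the groups was the same, but the authors' deposited table did not call it (−0.13 ± 0.08, adjusted p = 0.45). With 1 Col-0 library left out, the log2 fold change of PAL1 ranged from −0.25 to −0.14. The Col-0 call of PAL1 was lost under an empirical null (adjusted p = 0.35).

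PAL2, which acts beside PAL1, was not called in either ecotype. It had 13464 and 11960 normalized reads in the 2x Col-0 libraries, and 11849 and 11121 in the 4x libraries. The gap between the groups was smaller than that within the 2x libraries, and the authors' deposited table gave −0.15 ± 0.07 (adjusted p = 0.17). In Ler, PAL2 had 5884 and 6682 normalized reads in the 2x libraries, and 6673 and 6519 in the 4x libraries. Here the tetraploid values lay between the diploid ones, and the authors' deposited table gave 0.07 ± 0.09 (adjusted p = 0.83, 95% interval from −0.11 to 0.25). The difference between ecotypes of 0.22 ± 0.11 was not called (two-sided Wald test, adjusted p = 0.30). With 1 Col-0 library left out, the log2 fold change of PAL2 ranged from −0.23 without 2x library b to −0.06 without 2x library a.

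Summed over the 4 PAL genes, reads followed PAL1 and PAL2. In Col-0 the sum was 34951 and 31929 normalized reads in the 2x libraries, and 31128 and 29106 in the 4x libraries, a mean change of −9.94%. In Ler it was 18218 and 19906 in the 2x libraries and 18649 and 18668 in the 4x libraries, a mean change of −2.12%. PAL1 and PAL2 supply most of these reads, so the sum does not show the rise of PAL3. The share of PAL reads that came from PAL3 was 1.15% and 0.876% in the 2x Col-0 libraries, and 2.30% and 2.26% in the 4x libraries. In Ler this share was 1.64% and 1.97% in the 2x libraries, and 3.09% and 3.41% in the 4x libraries. Shares are of reads and not corrected for transcript length, so they compare ploidies and not genes.

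C4H is a cytochrome P450 and the only C4H gene of Arabidopsis. C4H was lower in the tetraploid in both ecotypes. It had 11429 and 10764 normalized reads in the 2x Col-0 libraries, and 9754 and 9338 in the 4x libraries. In Ler it had 8370 and 8372 in the 2x libraries, and 6661 and 6755 in the 4x libraries. Diploid values were above tetraploid values throughout, and in Ler the gap between ploidies was far larger than that within them. The authors' deposited tables gave −0.22 ± 0.06 in Col-0 (adjusted p = 0.00527) and −0.32 ± 0.08 in Ler (adjusted p = 0.00233). The difference between ecotypes was −0.10 ± 0.10 and was not called (two-sided Wald test, adjusted p = 0.72). The Col-0 call of C4H was lost without 2x library a (log2 fold change −0.17) or without 4x library b (−0.19), and the Ler call held without each library in turn. An empirical null ended both calls (adjusted p = 0.25 in Col-0 and 0.0554 in Ler).

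**Figure D2:**
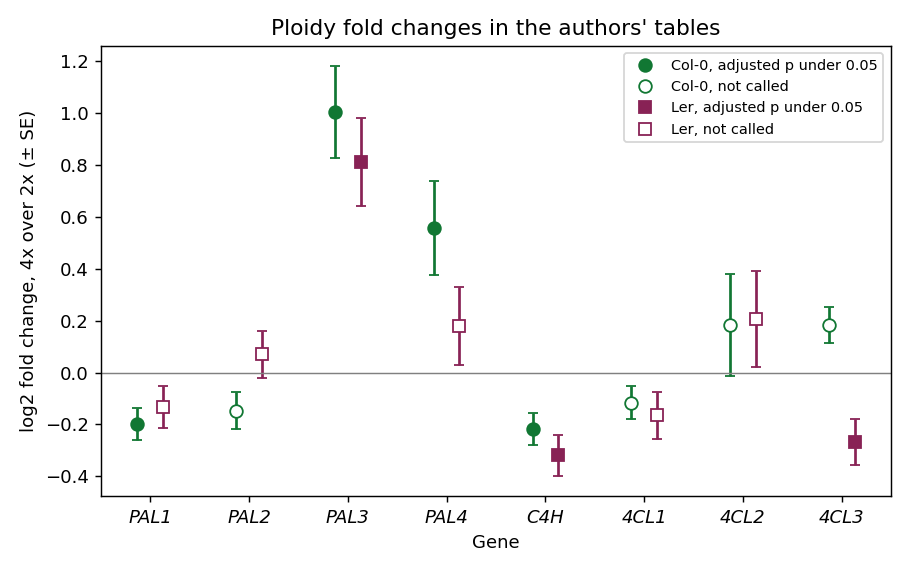
Log2 fold change, 4x over 2x (vertical axis), of each gene in Col-0 (circles) and Ler (squares) from the authors' deposited tables, with SE as bars. Filled symbols have an adjusted p under 0.05. PAL3 stands at 1.00 and 0.81, and 4CL3 is the gene whose symbols lie on opposite sides of 0 with the widest gap between bars.

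The 4CL genes did not move together. 4CL3 was higher in tetraploid than in diploid libraries in Col-0 and lower in Ler, and it was the called member in the test of the difference between ecotypes. In Col-0, 4CL3 had 6463 and 5971 normalized reads in the 2x libraries, and 7296 and 6839 in the 4x libraries. In Ler it had 3817 and 3950 in the 2x libraries, and 3297 and 3153 in the 4x libraries. Ploidies were separate within each ecotype, in opposite order. The authors' deposited tables gave 0.18 ± 0.07 in Col-0, just short of the threshold (adjusted p = 0.0519), and −0.27 ± 0.09 in Ler, just past it (adjusted p = 0.0468). With 1 library left out, the log2 fold change ranged from −0.30 to −0.24 in Ler and from 0.13 to 0.24 in Col-0. Such a fit leaves 1 library in a group and widens the SE, so whether a call depends on that library cannot be read from it. The fold changes differed by −0.45 ± 0.11 (Ler minus Col-0, two-sided Wald test, adjusted p = 0.00143 over 21361 shared genes), a test that called 8.71% of all genes, and 12.3% of those whose mean count reached 200 in both ecotypes. The difference ranged from −0.51 to −0.40 when 1 of the 8 libraries was left out. It was not called under an empirical null (adjusted p = 0.11, against 0.00119 to 0.00227 under the other alternatives).

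4CL1 was not called in either ecotype, with 4x libraries below 2x libraries in both. It had 6690 and 6516 normalized reads in the 2x Col-0 libraries, and 6192 and 5987 in the 4x libraries. In Ler it had 6279 and 6113 in the 2x libraries, and 5876 and 5181 in the 4x libraries. The authors' deposited tables gave −0.12 ± 0.06 in Col-0 (adjusted p = 0.26) and −0.16 ± 0.09 in Ler (adjusted p = 0.38), with 95% intervals from −0.24 to 0.01 and from −0.34 to 0.01. 4CL2, whose product also acts on p-coumarate, was the member with the fewest reads. It had 253 and 243 normalized reads in 2x Col-0 and 289 and 274 in 4x Col-0, then 274 and 338 in 2x Ler and 364 and 341 in 4x Ler. The tetraploid libraries were higher in both ecotypes, and the authors' deposited tables called neither (0.18 ± 0.20 in Col-0, adjusted p = 0.68, and 0.21 ± 0.18 in Ler, adjusted p = 0.70).

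Reads of the 4CL genes summed to less in tetraploid than in diploid Ler. The sum of 4CL1, 4CL2 and 4CL3 was 13406 and 12729 normalized reads in 2x Col-0 and 13777 and 13100 in 4x Col-0. In Ler it was 10370 and 10400 in the 2x libraries and 9537 and 8675 in the 4x libraries, a mean change of −12.3% against 2.84% in Col-0. The Col-0 sums overlapped between ploidies and the Ler sums did not. Within the 4CL reads of Col-0, the share of 4CL3 was 48.2% and 46.9% in the 2x libraries and 53.0% and 52.2% in the 4x libraries. In Ler that share was 36.8% and 38.0% in the 2x libraries and 34.6% and 36.3% in the 4x libraries. Reads of all 8 members together changed by −7.82% in Col-0 and −8.85% in Ler.

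**Figure D3:**
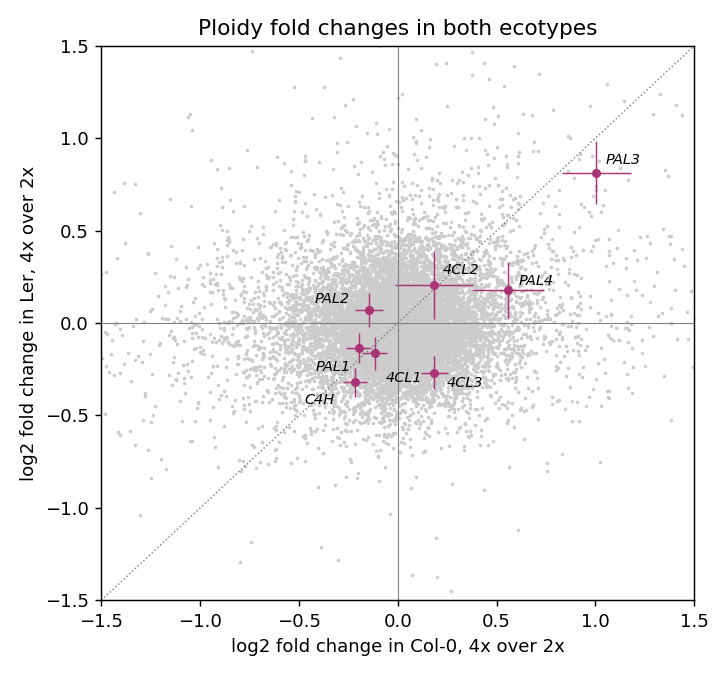
Log2 fold change, 4x over 2x, in Col-0 (horizontal) and Ler (vertical) for genes whose mean count reached 100 in both ecotypes (grey), with the 8 genes and their SE in colour. The dotted line marks equal fold changes, and 205 of 13324 genes lie outside the plotted range of 1.5 either way. PAL3 lies at the upper right, and 4CL3 lies below the line on the side of higher Col-0 values.

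Levels also differed between the ecotypes, as set across tables that were normalized separately and not tested. The means that follow pool ploidies. The submitters name the build TAIR10 alone, and how Ler reads map to it was not tested. Per 1000000 reads of its table, PAL1 had a mean of 841 in Col-0 and 514 in Ler, and PAL2 had 541 and 291. 4CL3 had 297 on this scale in Col-0 and 161 in Ler, and C4H had 462 and 341. PAL4 went the other way, with 16.4 on this scale in Col-0 and 25.6 in Ler. PAL3 (23.0 in Col-0 and 21.5 in Ler), 4CL1 (284 and 265) and 4CL2 (11.9 and 14.9) had libraries that overlapped between the ecotypes.

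Xylem is the water-conducting tissue whose walls are rich in lignin, and the summed reads of its markers moved with PAL3, although few single markers were called. The list of 11 markers holds the secondary wall cellulose synthase genes, the vessel proteases XCP1 and XCP2, laccases of lignin polymerization and regulators of vessel and fibre identity. Of these, 9 reached a mean count of 10 in each ecotype. NST1, a regulator of fibre walls, had a mean count of 0.438 in Col-0 and 0.713 in Ler, and its partner SND1 was not listed. The summed reads of the 9 markers were 2343 and 1539 in 2x Col-0 and 2791 and 2743 in 4x Col-0. In Ler the sums were 1336 and 2155 in the 2x libraries and 3095 and 3010 in the 4x libraries. The marker sum was thus 1.43 times higher in tetraploid Col-0 and 1.75 times higher in tetraploid Ler, and the lowest library for the markers was also the lowest for PAL3 in each ecotype.

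In the authors' deposited table for Col-0, 1 of the 9 xylem markers with an adjusted p was called higher and 0 lower by DESeq2, against 7.13% of all genes called higher. The called marker was CESA7 (0.97 ± 0.23), a secondary wall cellulose synthase gene. At an unadjusted p under 0.05, 2 markers were higher and 0 lower, beside 2474 and 2709 of all 21420 genes tested. In Ler, 3 of 9 were called higher and 0 lower in the authors' deposited table, against 3.19% of all genes called higher. These were CESA4 (0.80 ± 0.20), CESA8 (0.78 ± 0.23) and the laccase gene LAC4 (0.79 ± 0.22). At an unadjusted p under 0.05, 7 markers were higher and 0 lower in Ler, beside 1581 and 1372 of all 18683 genes tested. The median log2 fold change of the list was 0.46 in Col-0 and 0.79 in Ler, beside 0.00 and −0.01 over all genes tested. PAL3 amounted to 17.2 and 18.2 reads per 100 marker reads in 2x Col-0 and to 25.7 and 23.9 in 4x Col-0. In Ler this ratio was 22.4 and 18.2 in the 2x libraries and 18.6 and 21.1 in the 4x libraries. This ratio of PAL3 was higher in both 4x than in both 2x libraries of Col-0 and overlapped between ploidies in Ler, with no test of either. PAL4 amounted to 11.2 and 21.5 reads per 100 marker reads in 2x Col-0 and to 15.9 and 15.6 in 4x Col-0, so the ploidies overlapped. In Ler the ratio of PAL4 was 43.3 and 22.5 in the 2x libraries and 19.8 and 19.6 in the 4x libraries. In RNA from whole seedlings, more cells of a type and more RNA per cell cannot be told apart, and the part of xylem content in the PAL3 and PAL4 values was not tested.

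**Figure D4:**
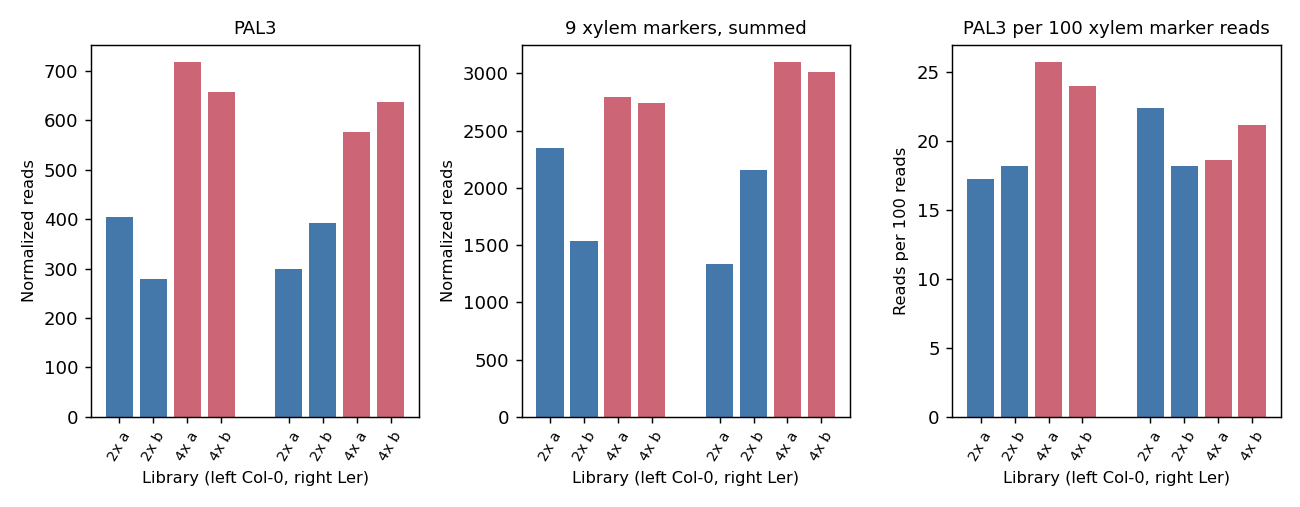
Normalized reads of PAL3 (left), summed reads of 9 xylem markers (middle) and PAL3 reads per 100 marker reads (right) in each library, for Col-0 and Ler, with 2x in blue and 4x in red. Bars start at 0 and each is 1 library. The ratio is higher in 4x than in 2x libraries of Col-0 and overlaps between ploidies in Ler.

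Genes that feed or control the entry steps were read from lists of known pathway genes, and their calls are to be set against the 7.13% of all genes called higher and 8.23% called lower in Col-0, and the 3.19% and 1.91% in Ler. At an unadjusted p under 0.05, 2474 of 21420 genes were higher and 2709 lower in Col-0. In Ler these numbers were 1581 and 1372 of 18683. An empirical null was reported for the 8 members alone. It ended the calls of C4H, whose Wald statistic was −3.47 in Col-0 and −4.06 in Ler. List calls with weaker statistics, such as F5H1 in Col-0 (−3.42) and C3H1 in Ler (−3.08), are no firmer. Phenylalanine is made by arogenate dehydratases (ADT). Of 6 ADT genes in Col-0, the authors' deposited table called ADT4 lower (−1.54 ± 0.10) and ADT6 higher (0.49 ± 0.13). ADT4 had 2112 and 2196 normalized reads in 2x Col-0 and 717 and 764 in 4x Col-0, a wide gap with little spread within a ploidy. In Ler, ADT4 was the 1 called member of the list, with 1414 and 1409 normalized reads in 2x and 1030 and 1102 in 4x (authors' deposited table, −0.41 ± 0.11). The fall of ADT4 was smaller in Ler by 1.14 (Ler minus Col-0, two-sided Wald test, adjusted p = 3.93e-12). The list median was 0.09 in Col-0 and −0.01 in Ler.

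The Kelch-domain F-box proteins KFB01, KFB20, KFB39 and KFB50 mark PAL enzymes for breakdown in Arabidopsis. In Col-0 the authors' deposited table called 3 of these 4 genes lower and 0 higher, also at an unadjusted p under 0.05: KFB50 (−1.55 ± 0.11), KFB20 (−2.52 ± 0.47) and KFB39 (−1.10 ± 0.21). KFB50 had 1453 and 1466 normalized reads in 2x Col-0 and 496 and 503 in 4x Col-0. KFB39 had 368 and 321 normalized reads in 2x and 165 and 156 in 4x. Ploidies were thus far apart for both genes beside the spread within a ploidy. KFB01 gave −0.38 ± 0.45 in the authors' deposited table and was not called. In Ler 1 of 4 was called lower, KFB50, with 547 and 456 normalized reads in 2x and 329 and 362 in 4x (authors' deposited table, −0.54 ± 0.17). KFB50 differed between ecotypes by 1.01 (two-sided Wald test, adjusted p = 2.8e-05), while KFB39 did not pass the threshold (1.45, adjusted p = 0.053). The median of the list was −1.33 in Col-0 and −0.20 in Ler.

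The 2 reductase genes that supply C4H with electrons, ATR1 and ATR2, were not called in either ecotype in the authors' deposited tables. They gave −0.05 ± 0.09 and 0.12 ± 0.07 in Col-0, and 0.16 ± 0.11 and −0.03 ± 0.09 in Ler. 4CL5, the neighbour of 4CL2 and another 4CL gene, was not called either (authors' deposited tables, 0.15 ± 0.29 in Col-0 and −0.28 ± 0.34 in Ler).

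Of 15 MYB, KNAT7 and Mediator genes that act on the pathway, 2 were called higher and 1 lower in Col-0, where 15.4% of all genes were called in either direction. The flavonol activators MYB12 (1.01 ± 0.33) and MYB111 (0.46 ± 0.15) were higher, and the anthocyanin activator PAP1 (−0.91 ± 0.17) was lower in the authors' deposited table. In Ler, PAP1 was called higher (authors' deposited table, 0.84 ± 0.15), the 1 call among 13 members with an adjusted p. MYB4, a repressor of C4H, was not called in either ecotype (authors' deposited tables, 0.23 ± 0.11 in Col-0 and −0.29 ± 0.12 in Ler). Its fold changes differed between the ecotypes by −0.52 (two-sided Wald test, adjusted p = 0.0195), and those of PAP1 by 1.75 (adjusted p = 3.74e-12). The Wald statistic of MYB4 (−3.21) was weaker than that of 4CL3 (−4.03), whose difference was not called under an empirical null. The list median was 0.11 in Col-0 and 0.03 in Ler.

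Downstream of 4CL, several genes of the lignin branch were lower in tetraploid Col-0. Of 10 monolignol genes, 5 were called lower and 0 higher by DESeq2 in the authors' deposited table, against 8.23% of all genes called lower. At an unadjusted p under 0.05, 6 were lower and 0 higher, beside 2709 and 2474 of all 21420 genes tested. COMT1 (−0.73 ± 0.09) and F5H1 (−0.21 ± 0.06) act on the way to syringyl lignin, HCT (−0.36 ± 0.07) opens the branch, and CCR1 (−0.23 ± 0.07) and CAD4 (−0.42 ± 0.07) reduce its intermediates. In Ler, 2 were called lower, CAD4 (−0.29 ± 0.08) and C3H1 (−0.32 ± 0.10), and 1 higher, CAD5 (0.58 ± 0.16), in the authors' deposited table. Of all genes in Ler, 1.91% were called lower and 3.19% higher. The median was −0.22 in Col-0 and 0.01 in Ler. COMT1 and F5H1 differed between ecotypes, by 0.74 and 0.32 (two-sided Wald test, adjusted p = 1.56e-05 and 0.0449). The Wald statistic of F5H1 (2.90) was weaker than that of 4CL3 (−4.03), whose difference was not called under an empirical null.

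**Figure D5:**
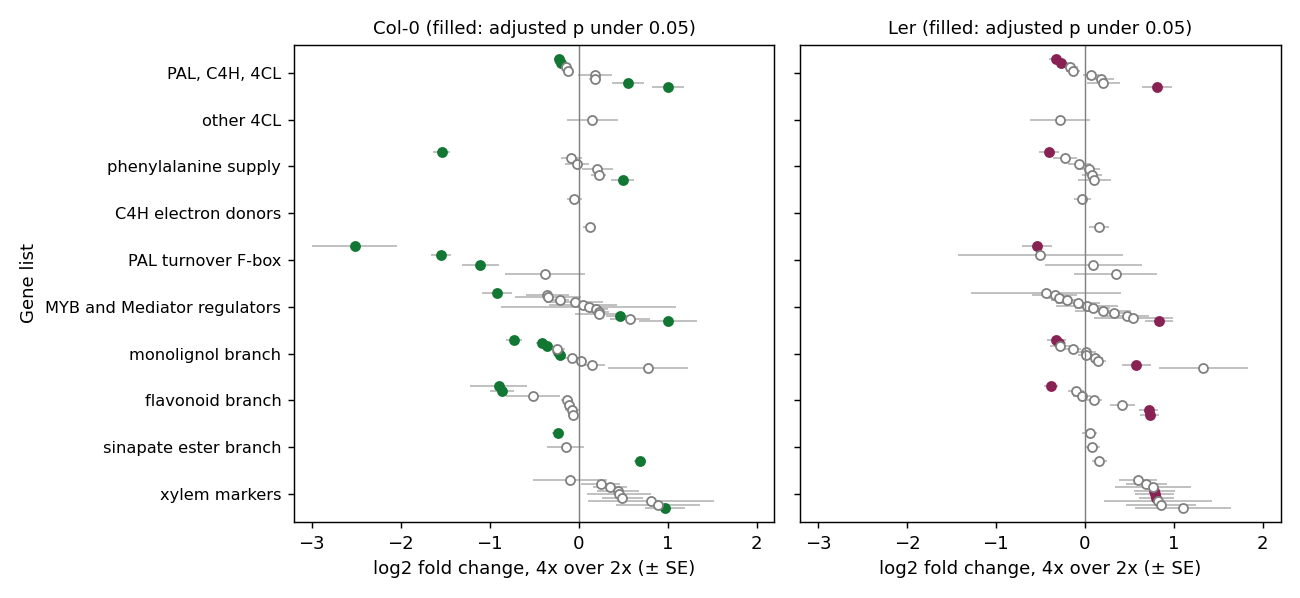
Log2 fold change, 4x over 2x (horizontal axis, SE as lines), of the genes of each list in Col-0 (left) and Ler (right), for genes that reached a mean count of 10. Each point is 1 gene, filled where the authors' adjusted p is under 0.05. The F-box genes spread far to the left in Col-0, and the xylem markers lie to the right of 0 in both panels, except VND6 in Col-0 (−0.10).

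Of 7 flavonoid genes in Col-0, F3'H (−0.86 ± 0.13) and DFR (−0.90 ± 0.32) were called lower in the authors' deposited table and 0 higher, with 2 and 0 at an unadjusted p under 0.05. For this list and the sinapate list, the shares of all genes called lower and higher were 8.23% and 7.13% in Col-0, and 1.91% and 3.19% in Ler. At an unadjusted p under 0.05, 2709 of 21420 genes were lower and 2474 higher in Col-0, and 1372 and 1581 of 18683 in Ler. In Ler, DFR (0.73 ± 0.11) and LDOX (0.72 ± 0.11), both of the anthocyanin branch, were called higher and F3H (−0.38 ± 0.08) lower in the authors' deposited table. CHS, the enzyme that takes the 4CL product into flavonoids, was not called in either (authors' deposited tables, −0.06 ± 0.06 and 0.10 ± 0.09). DFR, F3'H and LDOX differed between ecotypes by 1.63, 1.29 and 1.23 (two-sided Wald test, adjusted p = 5.89e-05, 5.33e-09 and 0.00321). The median was −0.13 in Col-0 and 0.10 in Ler. Of 3 sinapate ester genes listed, UGT84A2 (0.69 ± 0.07), which makes sinapoylglucose, was called higher and SNG1 (−0.23 ± 0.07), which makes sinapoylmalate, lower in Col-0 in the authors' deposited table. In Ler 0 of the 3 were called in the authors' DESeq2 results and 0 had an unadjusted p under 0.05. Both genes differed between ecotypes, UGT84A2 by −0.52 (adjusted p = 0.000132) and SNG1 by 0.31 (adjusted p = 0.042, two-sided Wald test). The Wald statistics of LDOX (3.80) and SNG1 (2.93) were weaker than that of 4CL3 (−4.03), whose difference was not called under an empirical null.

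The member with the smallest adjusted p in both tables was PAL3. Over the 2 fold changes, the genes nearest to it among 13323 whose mean count reached 100 in both ecotypes were AT2G21560 at a distance of 0.065, the homeobox gene HB-12 at 0.069 and AT1G62660 at 0.091. HB-12 had log2 fold changes of 1.00 in Col-0 and 0.74 in Ler. Only 4 genes lay within 0.1 of PAL3, and likeness over 2 comparisons says no more than that these pairs of values are close.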

How the data were processed

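RNA from 8 seedling libraries was compared by the authors, and 2 tables of results were deposited, 1 for each ecotype. HISAT2, Subread and DESeq2 are listed, without versions and with the build TAIR10, in the submitters' processing notes. Per the file headers, the authors' mean of normalized reads over the libraries of a table is a signal, beside a log2 fold change and its SE. The deposited statistic equals the fold change over its SE, as for an unshrunken fold change. The deposited Wald statistic is a score, and the deposited p-values are the Wald p and its Benjamini-Hochberg adjustment over the genes kept by the authors' filter. Strand use and the treatment of reads that match several family members are not named in the labels.

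Size factors came from genes whose mean equals 1 read in 1 library, and the sign of their fold change placed each library in a ploidy. The Col-0 factors lay between 0.915 and 1.14, those of Ler between 0.92 and 1.08. Whole read counts were then searched for that give the deposited mean, fold change and SE under a negative binomial model (Python 3.11.15, scipy 1.17.1), accepted at an error under 1e-06 with the next solution at least 10 times farther off. All 16 pairs of member and table were solved. The method was tested on simulated data.

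A two-sided Wald test compared the fold changes of the ecotypes, adjusted by Benjamini-Hochberg over 21361 shared genes. In simulated data it recovered 21% of log2 differences of 0.5 and 74% of those of 1, so an uncalled difference may still be present. Each library was left out in turn, with the dispersion implied by the deposited SE. That alternative was chosen after seeing the data, and only the log2 fold changes are read from it. Whether replicates came from separate plants is not stated, so a p-value reflects library spread that may be technical. Members and lists were chosen with earlier results of these data known. The text names all 8 members, each list gene that was called (at most 6 per list and table), and the 3 genes nearest to the member with the smallest adjusted p. ESP, ESM1, MED5B, MYB4, CHS, KFB01, ATR1, ATR2 and 4CL5 and the marker genes of leaf and root were named after their values were seen. Identifiers were matched to a RefSeq gene table of TAIR10.1, used for names and gene order only, and all 8 members matched. Levels were not compared between genes, since no transcript lengths of the authors' build were used here.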

Additional observations from a re-analysis of the deposited data

Results flagged for a closer look

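4CL3, the 4-coumarate:CoA ligase gene of the flavonoid branch, is listed because its fold change differed between the ecotypes by the test of the difference. It was 1 of 8 members called, near the 12.3% called among genes whose mean count reached 200 in both ecotypes, and it was not called under an empirical null (adjusted p = 0.113). The Ler minus Col-0 difference of the log2 fold changes was −0.45 ± 0.11 (two-sided Wald test, adjusted p = 0.00143). Both 4x libraries were above both 2x libraries in Col-0, and both were below them in Ler. The difference and this order rest on the direction assumed for Ler. In Col-0, ploidy and another difference between the 2x and 4x seedlings cannot be told apart.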

How the results depend on the processing

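PAL3 was called higher in both ecotypes under each of the 4 other settings for filtering, centring and the null and without each library in turn. An empirical null, which widens the null by 1.54 times in Col-0 and 1.24 times in Ler, left 1 called member in Col-0 and 1 in Ler, PAL3 in both, and 0 differences between ecotypes. Under it adjusted p was 0.35 for PAL1, 0.37 for PAL4 and 0.25 for C4H in Col-0, and 0.0554 for C4H and 0.3 for 4CL3 in Ler. 4CL3 in Ler was also not called without a filter on low counts (adjusted p = 0.0575) or with recentring (0.0728), while in Col-0 it was called at a mean count of at least 10 (0.0468). Without 1 library, 2 to 5 members were called in Col-0, against 4, and 2 in Ler, against 3, and 4CL3 was the 1 called difference each time. Values that changed sign when 1 library was left out belonged to uncalled results. PAL2 in Ler ranged from −0.019 to 0.16, and the difference between ecotypes ranged from −0.48 to 0.046 for PAL3, from −0.14 to 0.040 for 4CL1 and from −0.12 to 0.18 for 4CL2. The cause of these shifts was not tested. No paired analysis was possible because the tables carry no replicate numbers. Shares per transcript length were not run. With 2 libraries per group, SEs from 0.15 to 0.20 for PAL3, PAL4 and 4CL2 leave changes as small as those of PAL1 undetectable in them.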

Other observations

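Some pathway genes had very different levels in the ecotypes, in tables that were normalized separately and share 21361 identifiers, so these values were not tested. MED5B (REF4), a Mediator subunit that limits phenylpropanoid synthesis in Arabidopsis, had a mean count of 592 in Col-0 and 7.37 in Ler in the authors' deposited tables. Its paralogue MED5A had 1197 and 384. The F-box gene KFB39 had a mean count of 253 in Col-0 and 45.2 in Ler, and KFB20 had 81.4 and 10.8. These means pool ploidies, and per 1000000 reads KFB39 had 15.4 in 2x Col-0 and 1.80 in 2x Ler, but 7.18 in 4x Col-0 and 2.28 in 4x Ler. COMT1 had 274 in 2x Col-0 and 75.6 in 2x Ler on this scale, and 165 and 76.0 in the 4x libraries. Pooled over ploidies, the mean count of COMT1 was 4901 in Col-0 and 1678 in Ler. The cause of these differences in level was not tested, nor was how Ler reads map to the build TAIR10. These genes were chosen after their values were seen.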
